A study of Mus musculus with 18 samples.

Results

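Collagen genes were taken as all rows of the deposited gene table whose symbol consists of Col, a type number, the letter a and a chain number with nothing after it. This gave 44 of 24028 genes. 45 symbols began with Col and a digit, and Col4a3bp, whose product is not a collagen, was the one left out. They were divided by textbook class into 11 fibrillar genes, 6 basement membrane genes (type IV) and 27 genes of other types. Of the 44, 32 had enough counts to be tested: 11 fibrillar, 4 basement membrane and 17 other genes. The RNA came from C2C12 cells, an established line of mouse myoblasts, grown as 18 cultures in 6 groups of 3. Each group came from 1 of 3 clonal lines that carried a doxycycline-inducible transgene under puromycin selection: codon-altered mouse Dux, human DUX4 (also codon-altered), or firefly luciferase. Induced cultures of each line received 2 µg/ml doxycycline for 36 h, while uninduced ones of that line were collected at the same time without it. Both factors are transcription factors with a pair of homeodomains, and the luciferase line carried a reporter enzyme in their place. Each transgene was represented by a single clone, so line, clone and transgene cannot be told apart, and doxycycline was present wherever a transgene was induced. The question followed here is how collagen transcripts differed with induction in each line, whether those responses differed between lines, and how the lines differed before induction.

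Collagens are secreted trimers of alpha chains with a repeated glycine-X-Y sequence that winds into a triple helix. Most fibrillar collagens have one long unbroken helix, are trimmed outside the cell and assemble into the banded fibrils of connective tissue. Type IV collagen forms a flat network that, with laminins and nidogens, makes the basement membrane around each muscle fibre. Type VI collagen forms beaded filaments between fibrils and basement membrane, fibril-associated collagens sit on fibril surfaces, and multiplexins lie in or beside basement membranes. In muscle, mutations of human type VI and type XII collagen genes cause muscle disease.

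The classes also differed in gene structure, which the selection by symbol did not use. In the GENCODE annotation of GRCm38 (mm10), a median of 46.3% of the coding exons of fibrillar genes were exactly 54 bp long, a length that codes whole glycine-X-Y triplets (range over 11 genes 41.2% to 55%). The median was 4.05% in the 6 basement membrane genes (range 2.13% to 5.66%) and 7.5% in the 27 other genes (range 0% to 44.4%). Type IV genes lie in head-to-head pairs. Col4a1 (chr8:11198423-11312826, - strand) and Col4a2 (chr8:11312805-11449287, + strand) overlap by 22 bp at their starts, Col4a3 and Col4a4 start 72 bp apart on chromosome 1, and Col4a5 and Col4a6 start 1309 bp apart on chromosome X. Other neighbours are not arranged in this way: Col3a1 (chr1:45311538-45349706, + strand) and Col5a2 (chr1:45374321-45503282, - strand) lie tail to tail with 24615 bp between them, and Col6a1 (chr10:76708792-76726168, - strand) and Col6a2 (chr10:76595762-76623630, - strand) run on the same strand with start sites 102538 bp apart.

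Sequence just upstream of the start site is shown for 5 genes on which the results turn. Col1a2 fell most with human DUX4 among fibrillar genes, and Col3a1 had the highest level per kilobase of exon in 4 of the 6 groups. Col24a1 rose most with human DUX4. Col6a1 and Col6a2 were called in the same direction as each other in every comparison of induced with uninduced cultures. Each sequence is the 250 bases before a RefSeq start site in GRCm38.p6, written 5′ to 3′ on the gene's own strand. RefSeq starts can differ from the GENCODE gene bounds, as they do for Col1a2 and Col6a1. Capitals mark CCAAT with its reverse complement ATTGG, then TATAAA with its reverse complement TTTATA, and GGGCGG with its reverse complement CCGCCC. These were the only motifs searched, and overlaps were allowed. The windows are chr6:4505368-4505617, + strand; chr1:45311288-45311537, + strand; chr3:145292222-145292471, + strand; chr10:76726045-76726294, - strand; and chr10:76623631-76623880, - strand.
Col1a2: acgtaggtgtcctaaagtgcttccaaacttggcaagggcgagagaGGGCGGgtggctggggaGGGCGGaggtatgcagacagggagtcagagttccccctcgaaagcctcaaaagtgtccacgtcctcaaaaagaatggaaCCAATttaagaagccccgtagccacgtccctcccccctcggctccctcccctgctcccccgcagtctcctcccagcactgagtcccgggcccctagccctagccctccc
Col3a1: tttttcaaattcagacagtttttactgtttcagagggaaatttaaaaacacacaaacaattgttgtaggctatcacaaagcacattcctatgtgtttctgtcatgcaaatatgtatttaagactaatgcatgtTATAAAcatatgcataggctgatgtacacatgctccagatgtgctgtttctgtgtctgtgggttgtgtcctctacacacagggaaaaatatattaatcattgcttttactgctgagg
Col24a1: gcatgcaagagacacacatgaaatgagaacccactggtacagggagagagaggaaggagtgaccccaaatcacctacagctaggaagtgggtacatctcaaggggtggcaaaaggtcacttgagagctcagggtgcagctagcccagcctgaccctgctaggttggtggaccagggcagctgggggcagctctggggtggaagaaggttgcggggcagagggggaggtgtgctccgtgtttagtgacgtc
Col6a1: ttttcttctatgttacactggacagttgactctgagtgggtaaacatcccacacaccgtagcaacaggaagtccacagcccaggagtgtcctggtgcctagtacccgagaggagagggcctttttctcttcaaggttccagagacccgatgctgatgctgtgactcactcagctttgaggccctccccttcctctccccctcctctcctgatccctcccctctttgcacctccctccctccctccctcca
Col6a2: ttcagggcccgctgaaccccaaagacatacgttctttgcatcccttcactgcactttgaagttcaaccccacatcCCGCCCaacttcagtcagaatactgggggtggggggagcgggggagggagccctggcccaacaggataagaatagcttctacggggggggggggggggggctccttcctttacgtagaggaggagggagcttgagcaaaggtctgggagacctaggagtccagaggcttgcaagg

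The Col1a2 window held 1 CCAAT and 2 GGGCGG matches, the Col3a1 window 1 TATAAA match and the Col6a2 window 1 GGGCGG match, and the Col24a1 and Col6a1 windows held none of these letters. RefSeq promoter entries were found for 35 of the 44 genes. Over all 32851 promoters in the same table, 33.8% held CCAAT, 12.4% held TATAAA and 32.7% held GGGCGG on either strand within the 250 bases. GGGCGG was present in 6 of 8 fibrillar, 3 of 5 basement membrane and 13 of 25 other collagen promoters. TATAAA was present in 2, 0 and 3 of them, in the same order. These are descriptions of letters in a window and were not tested.

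The shared start of Col4a1 and Col4a2 is shown because both genes are read from it and both were called lower with induction in every line. In the 78 bases at chr8:11312777-11312854, + strand (GRCm38.p6), capitals mark the 22 bases from the Col4a2 start site, read to the right, to the Col4a1 start site, read to the left on the other strand.
Col4a1 and Col4a2: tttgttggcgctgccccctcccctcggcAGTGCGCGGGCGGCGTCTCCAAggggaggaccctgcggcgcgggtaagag

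The libraries held 11010586 to 17179642 counts, and 1 of them stood apart. In induced mouse Dux replicate 1, the shortest quintile of genes by exon length lay 0.25 above the other induced mouse Dux libraries (median log2 difference) and the longest quintile 0.29 below. Uninduced mouse Dux replicate 1 leaned the same way by 0.0528 and -0.0648. Collagen transcripts are long, and the part of transcript length in their values was not tested, so most mouse Dux responses below are also given without both replicate 1 libraries, a setting chosen after seeing the data, or without the induced one. Not all myoblast markers were present in the factor lines. Of 7 such markers, Myf5 had 2 counts over induced and 11 over uninduced mouse Dux libraries, and Myog averaged 0.426 to 2.32 CPM in the 4 groups of the factor lines, against 118 and 194 CPM in induced and uninduced luciferase cultures. Their sum, mostly Des and Chrna1, was 1537 to 1704 CPM in induced and 1711 to 1730 CPM in uninduced mouse Dux libraries, 997 to 1033 and 837 to 868 CPM in human DUX4 libraries, and 2562 to 2691 and 3422 to 3465 CPM in luciferase libraries. With human DUX4 the higher sum came from Chrna1 (840 against 363 CPM), while 5 of the 7 were called lower, among them Myod1 (3.67 against 26.2 CPM) and Des (76.3 against 212 CPM), at a list median of -1.48 on the log2 scale. With mouse Dux 6 of the 7 were called lower, and with luciferase 7. Of 6 fibroblast markers, Tcf21 had no count in any group, while their sum, mostly Pdgfra, Cd34 and Dcn, was 81.4 to 95.6 CPM in induced against 181 to 191 CPM in uninduced mouse Dux libraries, 254 to 272 against 146 to 155 CPM in human DUX4 libraries and 364 to 377 against 204 to 210 CPM in luciferase libraries. Of 5 blood markers, Cd3e was at 0 in all groups, and Csf1r and Cd68 brought the sum to 32.1 to 33.9 CPM in induced against 3.32 to 4.36 CPM in uninduced human DUX4 libraries. Across libraries, the sum of 5 endothelial markers lay between 0.174 and 27.2 CPM (Cdh5 in the luciferase line), 5 epithelial markers between 0.134 and 1.64 CPM, 6 chondrocyte and osteoblast markers between 13.5 and 64.9 CPM (mainly Sox9), and 4 adipocyte markers between 1.58 and 122 CPM (Cebpa, highest in induced mouse Dux libraries). The part of these shifts in the collagen values was not tested. In RNA from whole cultures, fewer cells making a collagen and less of its RNA per cell cannot be told apart. Values below are CPM, that is, counts scaled to library size with the edgeR scaling. A gene is called higher or lower at an adjusted p under 0.05 in edgeR's quasi-likelihood test with Benjamini-Hochberg adjustment over 13602 genes.

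Collagens took a smaller share of all counts in induced than in uninduced cultures of the mouse Dux and human DUX4 lines. The 44 genes together took 0.334, 0.498 and 0.485% of counts in induced mouse Dux libraries, against 0.866, 0.988 and 0.996% in uninduced ones. They took 0.796, 0.818 and 0.858% in induced human DUX4 libraries, against 1.54, 1.48 and 1.45% in uninduced ones. They took 2.24, 2.3 and 2.28% in induced luciferase libraries, against 2.46, 2.45 and 2.43% in uninduced ones. Induced and uninduced libraries did not overlap in any line, and the luciferase line had the highest shares of the 3. The drop was present in each class of the mouse Dux line: fibrillar genes took 0.295% ± 0.0501 against 0.612% ± 0.0299, basement membrane genes 0.0315% ± 0.00544 against 0.0538% ± 0.00437, and other genes 0.113% ± 0.0362 against 0.284% ± 0.0384 (induced against uninduced, SD, n = 3 each). Without replicate 1 of each mouse Dux group these shares were 0.324 against 0.629%, 0.0346 against 0.0564% and 0.134 against 0.306%. In the human DUX4 line the fibrillar share was 0.526% ± 0.0187 against 1.11% ± 0.0236, the basement membrane share 0.00833% ± 0.000688 against 0.0145% ± 0.000296, and the other share 0.29% ± 0.0124 against 0.372% ± 0.019. In the luciferase line these were 1.76% ± 0.018 against 1.86% ± 0.0149, 0.0616% ± 0.00178 against 0.0788% ± 0.000486 and 0.451% ± 0.0182 against 0.504% ± 0.00368. Shares are of total counts, without the edgeR scaling. On that scale the median log2 fold change of all genes tested was -0.25 with mouse Dux, -0.0235 with human DUX4 and 0.0124 with luciferase. A part of the lower shares with mouse Dux is thus common to most genes. The class sums describe the libraries and carry no test. A few members dominate them, since Col3a1 alone made up 34.6% of fibrillar counts in induced and 45.5% in uninduced mouse Dux libraries.

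**Figure D1:**
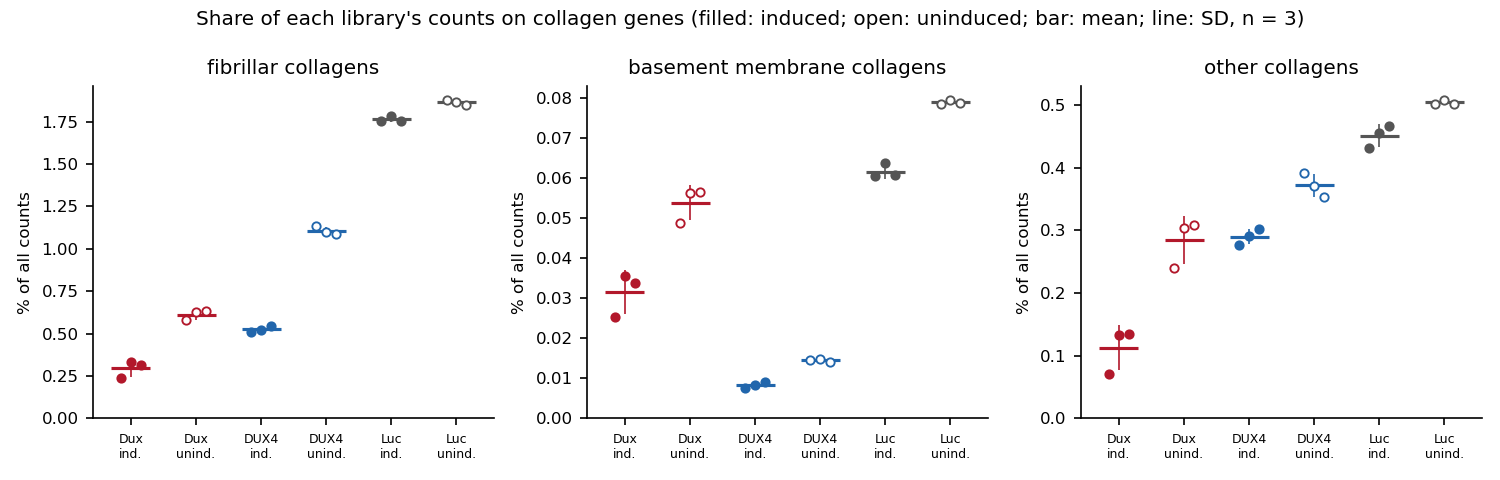
Percent of each library's counts on fibrillar, basement membrane and other collagen genes, with induced libraries filled and uninduced open, the bar at the mean and the line spanning 1 SD either side (n = 3). In the mouse Dux and human DUX4 lines all induced libraries sit below all uninduced ones in all 3 panels; the basement membrane share of the human DUX4 line (0.00833% induced, 0.0145% uninduced) is the lowest of the 3 lines.

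Per kilobase of exon (RPKM, the scale used for levels between genes), Col3a1 and Col5a2 led in the mouse Dux line and in uninduced human DUX4 cultures, Col5a2 and Col12a1 led in induced human DUX4 cultures, and Col1a1 and Col3a1 led in the luciferase line. With the longest annotated transcript as length, Col3a1 (202 RPKM) passed Col12a1 (167 RPKM) in induced human DUX4 cultures, and Col1a2 (445 RPKM) passed Col5a2 (396 RPKM) in uninduced ones. Of the 44 genes, 17 reached a mean of 1 RPKM in induced and 17 in uninduced mouse Dux cultures, 18 and 19 in human DUX4 cultures, and 19 in both luciferase groups. The summed RPKM of fibrillar genes was 6.82, 6.83 and 6.87 times that of basement membrane genes in induced mouse Dux libraries, against 8.46, 7.97 and 7.99 in uninduced ones. This ratio was 49.8, 45.8 and 45.1 in induced human DUX4 libraries, against 56.7, 54.1 and 55.7 in uninduced ones, and 23.7, 22.9 and 23.6 in induced luciferase libraries, against 20, 19.6 and 19.5 in uninduced ones. The balance of the 2 classes thus separated the 3 lines by more than it separated induced from uninduced cultures of any line.

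With mouse Dux, more collagen genes fell than rose. In induced against uninduced cultures of this line, 6 of the 32 tested collagen genes were called higher and 16 lower, and 10 were not called. Without induced replicate 1 the counts were 7 higher and 16 lower, and without both replicate 1 libraries 8 and 16. Among all genes tested, 68.9% were called, 34.1% higher and 34.8% lower, and the median log2 fold change was -0.00529, against -0.42 over the tested collagen genes. Of 11 fibrillar genes, 3 were higher (Col2a1, Col24a1, Col27a1) and 5 lower (Col1a2, Col3a1, Col5a2, Col5a3, Col11a2), with a median of -0.22. All 4 tested basement membrane genes were lower, with a median of -0.83. Of 17 tested other genes, 3 were higher (Col6a4, Col20a1, Col22a1) and 7 lower (Col6a1, Col6a2, Col6a3, Col8a1, Col8a2, Col12a1, Col18a1), with a median of -0.30. Without any library scaling beyond the total count, the median of all genes in this comparison moved to -0.25 and the calls to 3198 higher and 6924 lower, against 4643 higher and 4728 lower as reported. The collagen counts were then 5 higher and 20 lower.

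With human DUX4, as with mouse Dux, more collagen genes fell than rose. Here 9 of the 32 tested collagen genes were called higher and 16 lower, and 7 were not called, where 67.6% of all genes tested were called, 34.4% higher and 33.1% lower. The median log2 fold change was -0.80 over the tested collagen genes and 0 over all genes tested. Of 11 fibrillar genes, 3 were higher (Col5a2, Col11a1, Col24a1) and 6 lower (Col1a1, Col1a2, Col3a1, Col5a1, Col5a3, Col27a1), with a median of -1.33. Of 4 tested basement membrane genes, 3 were lower (Col4a1, Col4a2, Col4a5) and Col4a6 had at most 1 count in either group. The fitted median was -1.21, and -0.72 with Col4a6 left out. Of 17 tested other genes, 6 were higher (Col6a4, Col8a1, Col12a1, Col17a1, Col20a1, Col23a1) and 7 lower (Col6a1, Col6a2, Col6a3, Col7a1, Col8a2, Col16a1, Col18a1), with a fitted median of 0 and of -0.23 with genes lacking counts set at their bound or left out.

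In the luciferase line, collagen genes were called in both directions after doxycycline. Here 6 of the 32 tested collagen genes were called higher and 8 lower, and 18 were not called, where 31.1% of all genes tested were called, 14.7% higher and 16.4% lower. The median log2 fold change was -0.0998 over the tested collagen genes and 0 over all genes. Fibrillar genes had 2 higher (Col11a2, Col24a1) and 5 lower (Col1a1, Col1a2, Col5a3, Col11a1, Col27a1), basement membrane genes 2 lower (Col4a1, Col4a2), and other genes 4 higher (Col6a1, Col6a2, Col14a1, Col20a1) and 1 lower (Col8a1). The counts were 10 higher and 12 lower when this line was fitted alone, against 5 higher and 15 lower for the mouse Dux line fitted alone. They were also 10 and 12 when both mouse Dux replicate 1 libraries were left out of the shared estimate of spread.

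**Figure D2:**
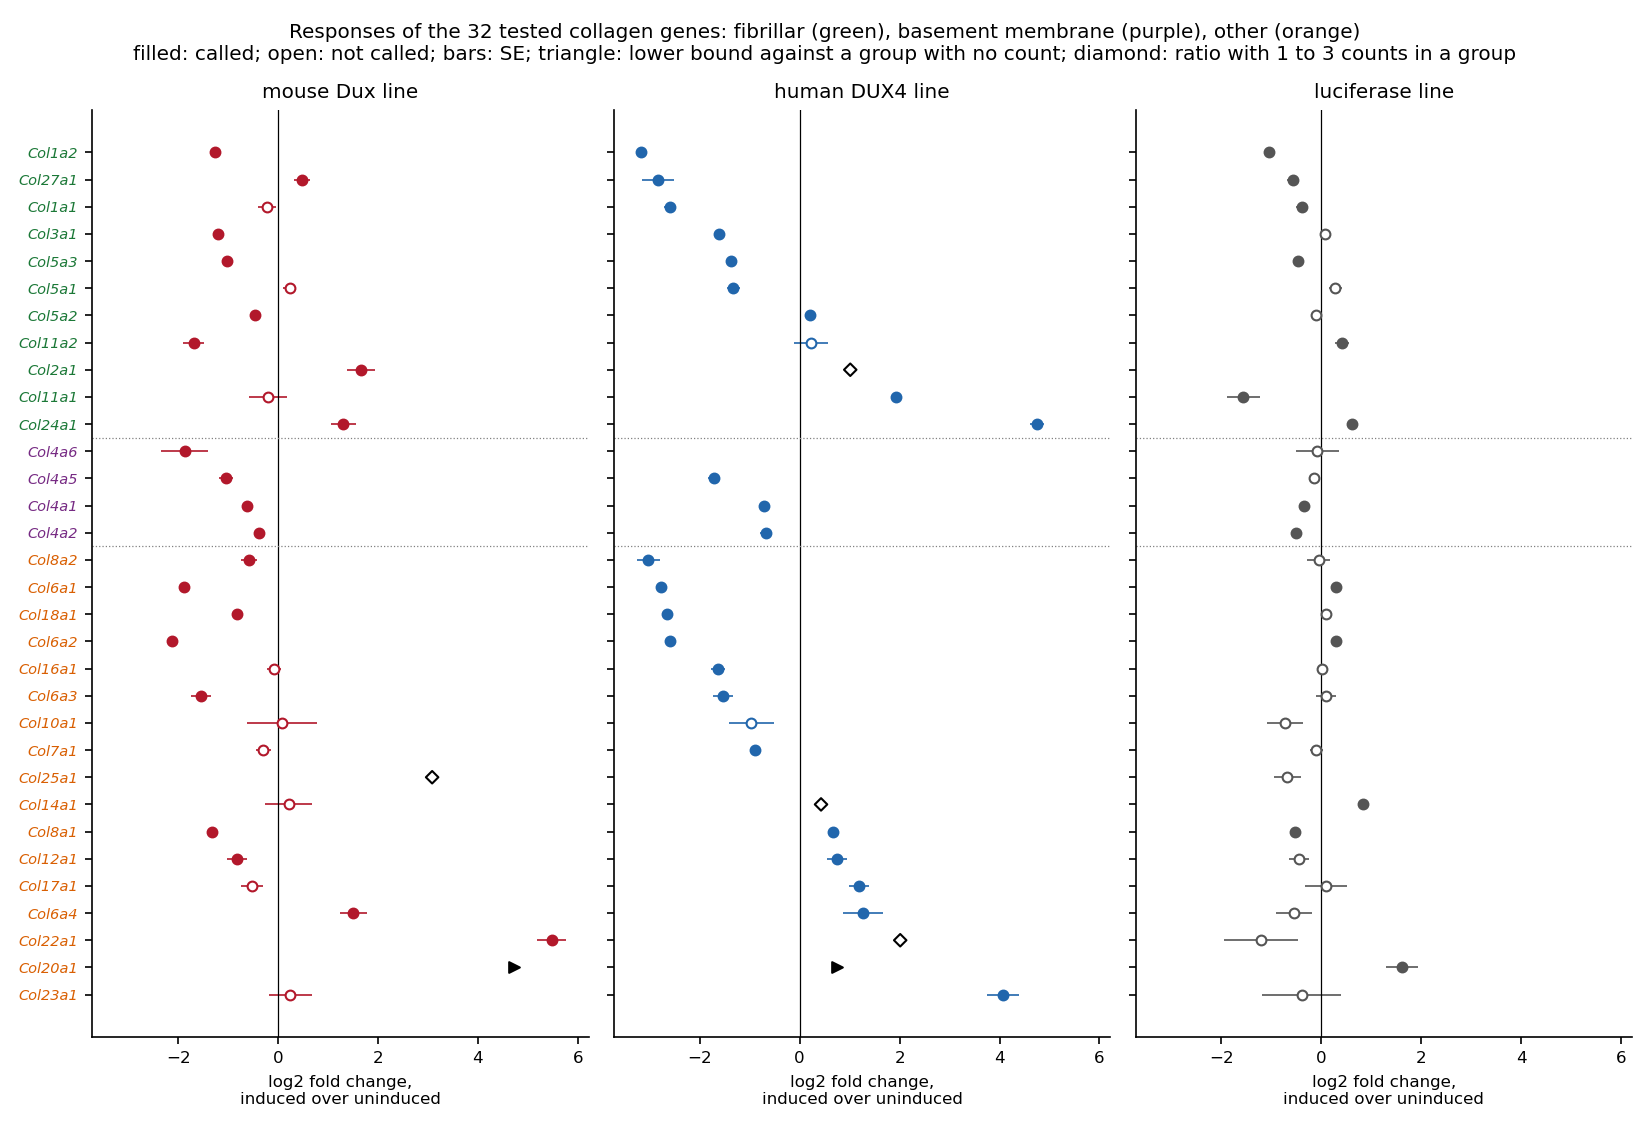
Log2 fold change of induced over uninduced cultures for the 32 tested collagen genes in the mouse Dux, human DUX4 and luciferase lines, grouped by class and ordered by the human DUX4 response, with bars for the SE, filled points for called genes and open points for genes not called. Triangles are lower bounds against a group with no count and diamonds ratios with 1 to 3 counts in a group. Col4a6 and Col25a1 in the human DUX4 line and Col2a1 in the luciferase line are not drawn because both groups had at most 3 counts. All 4 basement membrane genes lie left of 0 in the mouse Dux panel, and Col24a1 lies at 1.31, 4.74 and 0.61 in the 3 panels.

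Type I collagen, the main fibrillar collagen of bone, tendon and skin, is built of the products of Col1a1 (chr11:94936224-94953042, + strand) and Col1a2 (chr6:4504814-4541544, + strand). Col1a2 had 410.1, 489 and 468 CPM in induced mouse Dux libraries, against 1032, 1134 and 1134 CPM in uninduced mouse Dux libraries. It had 257, 266 and 267 CPM in induced human DUX4 libraries, against 2414, 2360 and 2358 CPM in uninduced human DUX4 libraries. It had 264, 277 and 276 CPM in induced luciferase libraries, against 592, 549 and 552 CPM in uninduced luciferase libraries. Induced libraries lay below uninduced ones in every line without overlap, and uninduced human DUX4 libraries had the highest values. The log2 fold changes were -1.27 (SE 0.0583, adjusted p = 3e-13) with mouse Dux, -3.17 (SE 0.0624, adjusted p = 1.35e-18) with human DUX4 and -1.05 (SE 0.0584, adjusted p = 4.3e-11) in the luciferase line. Without both replicate 1 libraries the fall with mouse Dux was -1.26. The human DUX4 response differed from the luciferase response by -2.12 (SE 0.0825, adjusted p = 8.7e-14) on the log2 scale, and the mouse Dux response differed by -0.22 (SE 0.0816, adjusted p = 0.0261). That second difference was not called under median-of-ratios scaling (-0.19, adjusted p = 0.0533), with only the groups compared (-0.21, adjusted p = 0.0763), or without replicate 2 or 3 of the uninduced mouse Dux, induced luciferase or uninduced luciferase group (-0.21 to -0.20).

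Col1a1 behaved differently from its partner. It had 4.86, 9.31 and 9.37 CPM in induced mouse Dux libraries, against 11.5, 8.35 and 7.71 CPM in uninduced mouse Dux libraries. It had 101, 109 and 109 CPM in induced human DUX4 libraries, against 692, 606 and 632 CPM in uninduced human DUX4 libraries. Further values were 4617, 4794 and 4675 CPM in induced luciferase libraries, against 6283, 6166 and 6019 CPM in uninduced luciferase libraries. The mouse Dux libraries were low in both conditions and overlapped, while the human DUX4 and luciferase groups were each separated. With human DUX4 the log2 fold change was -2.59 (SE 0.12, adjusted p = 2e-13), and in the luciferase line -0.39 (SE 0.11, adjusted p = 0.00962). With mouse Dux it was -0.22 (SE 0.18, adjusted p = 0.275) and not called, with an approximate 95% interval of -0.56 to 0.12. It was called lower under library size alone (-0.46, adjusted p = 0.0231) and was 0.20 without both replicate 1 libraries (adjusted p = 0.193).

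The ratio of Col1a1 to Col1a2 per kilobase set the 3 lines far apart. It was 0.0225, 0.036 and 0.0379 in induced mouse Dux libraries, against 0.0212, 0.0139 and 0.0129 in uninduced ones. It was 0.747, 0.777 and 0.777 in induced human DUX4 libraries, against 0.543, 0.486 and 0.507 in uninduced ones. It was 33.2, 32.7 and 32 in induced luciferase libraries, against 20.1, 21.3 and 20.6 in uninduced ones. In each line the induced libraries had the higher ratio without overlap, and the log2 fold change of Col1a2 was the lower of the 2. Lengths are exon unions, which for Col1a2 include non-coding transcripts. Per longest annotated transcript the mean ratios were 0.0153 and 0.00762 in the mouse Dux line, 0.365 and 0.244 in the human DUX4 line and 15.5 and 9.84 in the luciferase line (induced and uninduced).

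**Figure D3:**
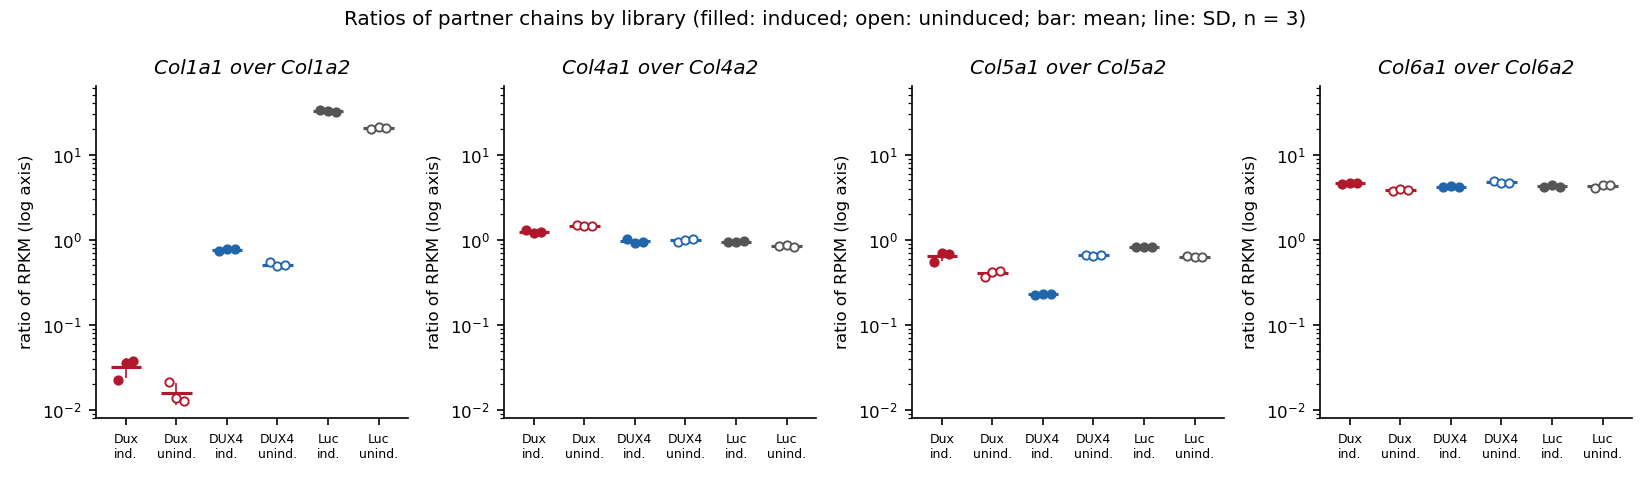
Ratio of RPKM of partner chains in each library on a log axis, with induced libraries filled and uninduced open, the bar at the mean and the line spanning 1 SD either side (n = 3). Col1a1 over Col1a2 ranges from a mean of 0.016 in uninduced mouse Dux to 32.6 in induced luciferase libraries, whereas the group means of Col4a1 over Col4a2 lie between 0.842 and 1.46 and those of Col6a1 over Col6a2 between 3.87 and 4.77.

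Col3a1 encodes type III collagen, which forms homotrimers and mixes with type I in fibrils of extensible tissues. It had 953, 1241 and 1205 CPM in induced mouse Dux libraries, against 2473, 2671 and 2689 CPM in uninduced mouse Dux libraries. It had 1062, 1131 and 1184 CPM in induced human DUX4 libraries, against 3560, 3377 and 3364 CPM in uninduced human DUX4 libraries. Further values were 8689, 8812 and 8580 CPM in induced luciferase libraries, against 8128, 8294 and 8229 CPM in uninduced luciferase libraries. It fell without overlap in both factor lines, and the luciferase libraries were the highest throughout. The log2 fold changes were -1.20 (SE 0.0725, adjusted p = 1.92e-11) with mouse Dux and -1.61 (SE 0.0732, adjusted p = 1.97e-13) with human DUX4, the first being -1.15 without both replicate 1 libraries. In the luciferase line it was 0.0814 (SE 0.0712, adjusted p = 0.428) and not called. The mouse Dux response exceeded the human DUX4 response by 0.40 (SE 0.10, adjusted p = 0.00169), that is, the fall was the smaller one. This difference was not called under library size alone (0.20, adjusted p = 0.0877).

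The type V chains, which enter type I fibrils and limit their width, parted from each other. Col5a1 (chr2:27886425-28039514, + strand) had 585, 600.2 and 644 CPM in induced human DUX4 libraries, against 1589, 1527 and 1486 CPM in uninduced human DUX4 libraries, with no overlap, and it changed on the log2 scale by -1.33 (SE 0.13, adjusted p = 2.99e-08). In the mouse Dux line it had 407, 709 and 675 CPM in induced mouse Dux libraries, against 438, 536 and 545 CPM in uninduced mouse Dux libraries, with replicate 1 the lowest of each group and the groups overlapping. There the log2 fold change was 0.24 (SE 0.13, adjusted p = 0.118) and not called. It was 0.43 without induced replicate 1 (adjusted p = 3.14e-09), 0.34 without both replicate 1 libraries (adjusted p = 7.97e-12), 0.20 with the replicate number as a block (adjusted p = 0.0193) and -0.0074 under library size alone (adjusted p = 0.966). Luciferase cultures had 1488, 1484 and 1498 CPM in induced luciferase libraries, against 1244, 1232 and 1218 CPM in uninduced luciferase libraries, all induced above all uninduced, at 0.28 (SE 0.13, adjusted p = 0.122) and not called in the shared fit but called without induced mouse Dux replicate 1 (0.27, adjusted p = 5.75e-06). The mouse Dux and human DUX4 responses of Col5a1 differed by 1.57 (SE 0.19, adjusted p = 4.24e-07).

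Col5a2 moved in opposite directions in the 2 factor lines. It had 835, 1137 and 1122 CPM in induced mouse Dux libraries, against 1356, 1452 and 1441 CPM in uninduced mouse Dux libraries. It had 2955, 2964 and 3123 CPM in induced human DUX4 libraries, against 2683, 2666 and 2515 CPM in uninduced human DUX4 libraries. Further values were 2024, 2025 and 2072 CPM in induced luciferase libraries, against 2176, 2200 and 2197 CPM in uninduced luciferase libraries. Induced libraries were the lower ones with mouse Dux and luciferase and the higher ones with human DUX4, each without overlap. The log2 fold changes were -0.46 (SE 0.0783, adjusted p = 3.73e-05) with mouse Dux, 0.20 (SE 0.0779, adjusted p = 0.0286) with human DUX4 and -0.10 (SE 0.078, adjusted p = 0.355), not called, with luciferase. Without both replicate 1 libraries the mouse Dux value was -0.37 (adjusted p = 2.23e-14). The difference between the mouse Dux and human DUX4 responses was -0.66 (SE 0.11, adjusted p = 3.22e-05). The rise with human DUX4 was not called under library size alone (0.16, adjusted p = 0.0776) or without induced replicate 3 or uninduced replicate 2 or 3 (0.17 to 0.21). The luciferase value was called without induced mouse Dux replicate 1 (-0.10, adjusted p = 0.00932). Col5a3, the third chain of type V, fell in all 3 lines: 40.1 ± 6.6 against 81.2 ± 6.63 CPM with mouse Dux, 67 ± 0.652 against 174 ± 9.22 CPM with human DUX4 and 89.2 ± 2.74 against 123 ± 3.23 CPM with luciferase (induced against uninduced, SD, n = 3 each), at log2 fold changes of -1.02, -1.37 and -0.46 (adjusted p = 2.83e-09, 1.09e-11 and 0.000165), the first being -0.97 without both replicate 1 libraries.

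Col24a1 (chr3:145292472-145552011, + strand), a minor fibrillar collagen known from developing bone, rose in every line. It had 1.45, 2.18 and 1.61 CPM in induced mouse Dux libraries, against 0.933, 0.696 and 0.51 CPM in uninduced mouse Dux libraries. It had 19.9, 20.6 and 21 CPM in induced human DUX4 libraries, against 0.75, 0.833 and 0.679 CPM in uninduced human DUX4 libraries. Further values were 46.2, 53.7 and 50.4 CPM in induced luciferase libraries, against 32.3, 33.6 and 32.4 CPM in uninduced luciferase libraries. Uninduced mouse Dux and human DUX4 libraries were all under 1 CPM, and the luciferase libraries were the highest in both conditions. The log2 fold changes were 1.31 (SE 0.24, adjusted p = 8.59e-05) with mouse Dux, 4.74 (SE 0.14, adjusted p = 3.36e-16) with human DUX4 and 0.61 (SE 0.0663, adjusted p = 5.8e-07) with luciferase. With mouse Dux the value was 1.61 without both replicate 1 libraries. The human DUX4 response exceeded the luciferase response by 4.13 (SE 0.17, adjusted p = 1.56e-13) and the mouse Dux response fell short of the human DUX4 response, the difference being -3.43 (SE 0.35, adjusted p = 4.8e-08).

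The remaining fibrillar genes are best known from cartilage. Col11a1, a type XI chain, had 77.4, 76.7 and 81.4 CPM in induced human DUX4 libraries, against 22, 20.3 and 19.6 CPM in uninduced human DUX4 libraries, a rise of 1.93 (SE 0.0742, adjusted p = 1.62e-14). It had under 2 CPM in every other library and a response of -1.56 (SE 0.33, adjusted p = 0.00119) in the luciferase line. Its partner Col11a2 had 1.84, 2.48 and 1.61 CPM in induced mouse Dux libraries, against 6.03, 6.03 and 7.01 CPM in uninduced mouse Dux libraries, a log2 response of -1.69 (SE 0.21, adjusted p = 6.8e-07), which was also -1.69 without both replicate 1 libraries. It also had 13.2, 13.5 and 14.5 CPM in induced luciferase libraries, against 11.4, 9.87 and 9.53 CPM in uninduced luciferase libraries, a log2 response of 0.42 (SE 0.13, adjusted p = 0.0224). The luciferase value was not called without induced replicate 3 or uninduced replicate 2 or 3 (0.37 to 0.39). The highest Col11a1 levels were in the human DUX4 line and the highest Col11a2 levels in the luciferase line. Col27a1, the type XXVII chain, had 0.209, 0.198 and 0.201 CPM in induced human DUX4 libraries, against 1.44, 1.47 and 1.58 CPM in uninduced human DUX4 libraries, at -2.83 (SE 0.33, adjusted p = 2.37e-07), and 2.43, 3.3 and 3.59 CPM in induced mouse Dux libraries, against 2.21, 2.38 and 2.04 CPM in uninduced mouse Dux libraries, at 0.48 (SE 0.17, adjusted p = 0.0199). The small rise with mouse Dux was not called under library size alone (0.24, adjusted p = 0.264), nor without induced replicate 2 or 3 or uninduced replicate 3 (0.35 to 0.42), and was 0.62 without both replicate 1 libraries. Col2a1, the type II chain, had 1.91, 2.85 and 2.56 CPM in induced mouse Dux libraries, against 0.424, 0.986 and 0.764 CPM in uninduced mouse Dux libraries, at 1.67 (SE 0.28, adjusted p = 4.64e-05) and 1.60 without both replicate 1 libraries, and no more than 4 counts in any other group.

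Col4a1 and Col4a2 fell with induction in all 3 lines, and Col4a5 fell in both factor lines. Col4a1 and Col4a2, which together form the widespread type IV trimer, are the pair whose shared start is printed above. Col4a1 had 166, 222 and 217 CPM in induced mouse Dux libraries, against 280.4, 323 and 322 CPM in uninduced mouse Dux libraries. It had 39, 40.8 and 44.5 CPM in induced human DUX4 libraries, against 67.4, 70 and 67.1 CPM in uninduced human DUX4 libraries. Further values were 241, 256 and 245 CPM in induced luciferase libraries, against 308, 320.2 and 312 CPM in uninduced luciferase libraries. All induced groups lay below their uninduced groups, and the human DUX4 line was the lowest. Log2 fold changes were -0.62 (SE 0.0815, adjusted p = 1.65e-06) with mouse Dux, -0.72 (SE 0.09, adjusted p = 7.3e-07) with human DUX4 and -0.34 (SE 0.0808, adjusted p = 0.00289) with luciferase. The mouse Dux value was -0.57 without both replicate 1 libraries.

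Col4a2 had 113, 164 and 157 CPM in induced mouse Dux libraries, against 168, 198 and 199 CPM in uninduced mouse Dux libraries. It had 33.9, 39.5 and 41.9 CPM in induced human DUX4 libraries, against 63.9, 62.1 and 59 CPM in uninduced human DUX4 libraries. Further values were 228, 239 and 226 CPM in induced luciferase libraries, against 327, 329.8 and 334 CPM in uninduced luciferase libraries. The human DUX4 line was again the lowest and, unlike for Col4a1, all luciferase libraries were above all mouse Dux ones, with no overlap between induced and uninduced libraries of a line. Log2 fold changes were -0.38 (SE 0.10, adjusted p = 0.00244) with mouse Dux, -0.68 (SE 0.11, adjusted p = 2.04e-05) with human DUX4 and -0.51 (SE 0.0989, adjusted p = 0.000471) with luciferase. The mouse Dux value was -0.25 without induced replicate 1 (adjusted p = 9.5e-05) and -0.32 without both replicate 1 libraries, and it was not called when this line was fitted alone (-0.36, adjusted p = 0.0544). Per kilobase the ratio of Col4a1 to Col4a2 was 1.31, 1.2 and 1.22 in induced and 1.48, 1.45 and 1.44 in uninduced mouse Dux libraries, and its means were 0.959 ± 0.0554 and 0.981 ± 0.0397 in human DUX4 and 0.948 ± 0.0116 and 0.842 ± 0.0171 in luciferase libraries (induced and uninduced, SD, n = 3). The Col4a2 response differed from the luciferase response by 0.13 (SE 0.14, adjusted p = 0.447) with mouse Dux and -0.17 (SE 0.15, adjusted p = 0.358) with human DUX4, neither called, with approximate 95% intervals of -0.15 to 0.41 and -0.46 to 0.12. For Col4a1 these differences were -0.27 (SE 0.11, adjusted p = 0.0462) and -0.38 (SE 0.12, adjusted p = 0.0125), both called. The first was not called under median-of-ratios scaling (-0.24, adjusted p = 0.0766), by DESeq2 (-0.24, adjusted p = 0.0892) or with only the groups compared (-0.26, adjusted p = 0.0962), nor in 13 of the 18 fits that left out 1 library (range over the 18 -0.36 to -0.17). It was -0.17 without mouse Dux induced replicate 1 (adjusted p = 0.0168) and -0.23 without both replicate 1 libraries (adjusted p = 4.35e-05). Without both mouse Dux replicate 1 libraries, the Col4a2 differences were called at 0.19 (adjusted p = 0.00187) and -0.20 (adjusted p = 0.0039).

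Col4a5, a chain of the specialised network of kidney filters that is also found in other basement membranes, marked the luciferase line. It had 2.43, 4.58 and 3.3 CPM in induced mouse Dux libraries, against 7.04, 6.84 and 7.2 CPM in uninduced mouse Dux libraries. It had 3.13, 3.96 and 3.55 CPM in induced human DUX4 libraries, against 11.6, 11.9 and 11.3 CPM in uninduced human DUX4 libraries. Further values were 123, 130.5 and 125 CPM in induced luciferase libraries, against 141, 141 and 138 CPM in uninduced luciferase libraries. The luciferase libraries were all above 100 CPM and the others all under 12 CPM, with induced below uninduced in each line. Log2 fold changes were -1.05 (SE 0.14, adjusted p = 1.66e-06) with mouse Dux and -1.71 (SE 0.12, adjusted p = 2.51e-10) with human DUX4, against -0.15 (SE 0.0638, adjusted p = 0.0814), not called, with luciferase, and both factor responses were lower than the luciferase response (-0.89, adjusted p = 5.11e-05, and -1.56, adjusted p = 1.51e-08). The luciferase value was called lower by DESeq2 (-0.17, adjusted p = 0.0105), with the replicate number as a block (-0.15, adjusted p = 0.0238), with only the groups compared (-0.15, adjusted p = 0.000284) and without mouse Dux induced replicate 1 (-0.15, adjusted p = 0.000887) or 2 (-0.15, adjusted p = 0.017). The mouse Dux value was -0.85 without both replicate 1 libraries. Col4a6, its head-to-head neighbour, had 0.263, 0.0751 and 0.22 CPM in induced mouse Dux libraries, against 0.764, 0.754 and 0.637 CPM in uninduced mouse Dux libraries, at -1.87 (SE 0.46, adjusted p = 0.00168) and -2.19 without both replicate 1 libraries, 0 and 1 counts in all induced and all uninduced human DUX4 libraries, and under 1 CPM in every luciferase library. Col4a3 and Col4a4 were not tested: Col4a3 had at most 10 counts in any group and Col4a4 at most 18. Col4a3 had 10 counts in the induced and 1 in the uninduced luciferase group, a ratio of 9.97 (95% counting interval 1.42 to 433).

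Among the other types, Col6a1, Col6a2 and Col6a3 fell in both factor lines. Type VI collagen is made by muscle-resident cells as a trimer of the Col6a1, Col6a2 and Col6a3 products. Col6a1 had 115, 135 and 126 CPM in induced mouse Dux libraries, against 432, 472 and 473 CPM in uninduced mouse Dux libraries. It had 65.7, 73.6 and 68.8 CPM in induced human DUX4 libraries, against 502, 459 and 471 CPM in uninduced human DUX4 libraries. Further values were 643, 688 and 659.7 CPM in induced luciferase libraries, against 532, 555 and 548 CPM in uninduced luciferase libraries. Uninduced libraries of all 3 lines lay between 432 and 555 CPM, and induced ones were lower in both factor lines and higher with luciferase, without overlap. Log2 fold changes were -1.88 (SE 0.0617, adjusted p = 1.83e-15) with mouse Dux, -2.78 (SE 0.0644, adjusted p = 1.09e-17) with human DUX4 and 0.28 (SE 0.0586, adjusted p = 0.000887) with luciferase. With mouse Dux it was also -1.88 without both replicate 1 libraries.

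Col6a2 had 47.7, 55.6 and 51.3 CPM in induced mouse Dux libraries, against 218, 227 and 231 CPM in uninduced mouse Dux libraries. It had 29.9, 32.9 and 31.4 CPM in induced human DUX4 libraries, against 192, 186 and 193 CPM in uninduced human DUX4 libraries. Further values were 294, 297 and 298 CPM in induced luciferase libraries, against 247, 239.7 and 238 CPM in uninduced luciferase libraries. It was called in the same direction as Col6a1 in every line, at log2 fold changes of -2.13 (SE 0.0529, adjusted p = 2.39e-17), -2.60 (SE 0.055, adjusted p = 3.45e-18) and 0.30 (SE 0.0485, adjusted p = 9.29e-05) for mouse Dux, human DUX4 and luciferase in turn, the first being -2.12 without both replicate 1 libraries. The ratio of Col6a1 to Col6a2 per kilobase was 4.61 ± 0.0377 and 3.87 ± 0.0957 in mouse Dux, 4.2 ± 0.0499 and 4.77 ± 0.165 in human DUX4 and 4.26 ± 0.13 and 4.3 ± 0.168 in luciferase libraries (induced and uninduced, SD, n = 3). Per longest annotated transcript these mean ratios were 2.90 and 2.44, 2.65 and 3.004, and 2.68 and 2.71. Col6a3 had 49.1, 107 and 113 CPM in induced mouse Dux libraries, against 191, 283 and 305 CPM in uninduced mouse Dux libraries, with replicate 1 the lowest of each group. It averaged 264 ± 14.9 against 769 ± 64.2 CPM with human DUX4 (induced against uninduced, SD, n = 3). The log2 fold changes were -1.54 (SE 0.20, adjusted p = 1.67e-06) with mouse Dux and -1.54 (SE 0.20, adjusted p = 9.89e-07) with human DUX4. The mouse Dux value was -1.26 without induced replicate 1 and -1.43 without both replicate 1 libraries. The 2 responses differed by 0.00313 and were not called different, but were without mouse Dux induced replicate 1 (0.31, adjusted p = 0.0259). It was 787 ± 31.9 against 738 ± 9.86 CPM with luciferase and not called (0.0935, adjusted p = 0.765). In both factor lines the response of each of the 3 genes was below the luciferase response, with called differences from -1.63 (Col6a3, mouse Dux) to -3.07 (Col6a1, human DUX4).

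Col12a1, a fibril-associated collagen, went down with mouse Dux and up with human DUX4. It had 419, 939 and 1004 CPM in induced mouse Dux libraries, against 1090, 1547 and 1553 CPM in uninduced mouse Dux libraries. It had 1821, 1914 and 2022 CPM in induced human DUX4 libraries, against 1230, 1150 and 1057 CPM in uninduced human DUX4 libraries. Further values were 1803, 1955 and 2063 CPM in induced luciferase libraries, against 2606, 2710 and 2646 CPM in uninduced luciferase libraries. Induced mouse Dux replicate 1 was far below its group, and no groups overlapped within a line. Log2 fold changes were -0.83 (SE 0.20, adjusted p = 0.00131) with mouse Dux, 0.74 (SE 0.20, adjusted p = 0.00306) with human DUX4 and -0.45 (SE 0.20, adjusted p = 0.1), not called, with luciferase. Without induced mouse Dux replicate 1 these were -0.54, 0.71 and -0.45, all called (adjusted p = 1.86e-07, 1.44e-11 and 1.14e-06), and without both replicate 1 libraries the mouse Dux value was -0.69. The mouse Dux and human DUX4 responses differed by -1.57 (SE 0.29, adjusted p = 8.11e-05). The mouse Dux response differed from the luciferase response by -0.38 (SE 0.28, adjusted p = 0.271), not called, by -0.45 with the replicate number as a block (adjusted p = 0.013), by -0.0872 without induced replicate 1 (adjusted p = 0.485) and by -0.24 without both replicate 1 libraries (adjusted p = 0.000401).

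Col8a1, a short-chain collagen of the network beneath some endothelia, showed the same opposition. It had 31.4, 42.3 and 40.4 CPM in induced mouse Dux libraries, against 95.7, 93.9 and 94.6 CPM in uninduced mouse Dux libraries. It had 474, 488 and 493 CPM in induced human DUX4 libraries, against 316, 312 and 292 CPM in uninduced human DUX4 libraries. Further values were 308, 319 and 322 CPM in induced luciferase libraries, against 458, 448 and 458 CPM in uninduced luciferase libraries. The mouse Dux line was the lowest in both conditions, and induced libraries were the higher ones with human DUX4 alone among these lines. Log2 fold changes were -1.32 (SE 0.0742, adjusted p = 6.89e-12) with mouse Dux, 0.66 (SE 0.0665, adjusted p = 3.49e-08) with human DUX4 and -0.52 (SE 0.0663, adjusted p = 4.69e-06) with luciferase, and the first 2 differed by -1.98 (SE 0.0996, adjusted p = 1.82e-12). Without both replicate 1 libraries the mouse Dux value was -1.20. Its partner Col8a2 fell in both factor lines: 5.59, 7.58 and 7.03 CPM in induced mouse Dux libraries, against 11.2, 9.16 and 10 CPM in uninduced mouse Dux libraries (-0.58, SE 0.16, adjusted p = 0.00277, and -0.41 without both replicate 1 libraries), and 1.25, 1.06 and 0.736 CPM in induced human DUX4 libraries, against 8.44, 9.87 and 6.56 CPM in uninduced human DUX4 libraries (-3.03, SE 0.23, adjusted p = 5.35e-10). Col18a1, a multiplexin of basement membranes whose C-terminal fragment is endostatin, averaged 103 ± 1.03 against 653 ± 28.1 CPM with human DUX4, 101 ± 15.8 against 178 ± 8.19 CPM with mouse Dux and 168 ± 7.17 against 159 ± 1.21 CPM with luciferase (induced against uninduced, SD, n = 3), at log2 fold changes of -2.66, -0.82 (-0.75 without both replicate 1 libraries) and 0.0855, the last not called.

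**Figure D4:**
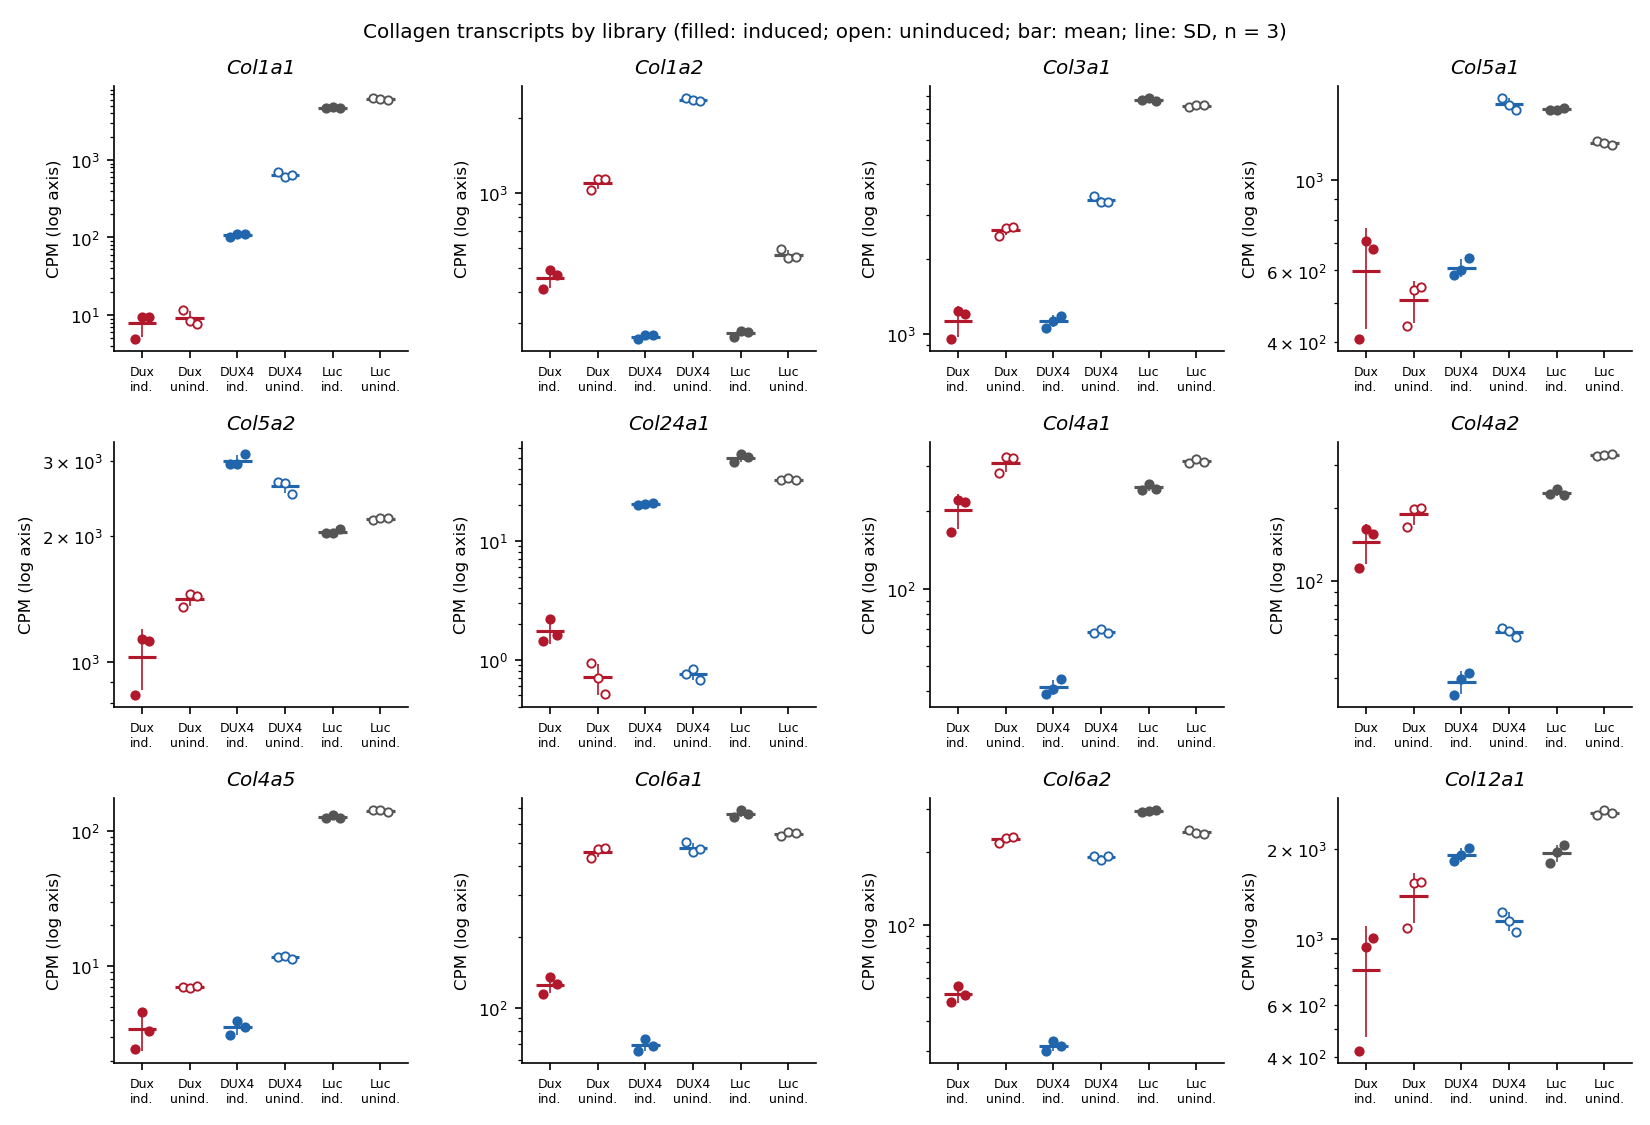
CPM in each library on log axes that differ between panels, for 12 collagen genes, with induced libraries filled and uninduced open, the bar at the mean and the line spanning 1 SD either side (n = 3). Col1a2, Col3a1, Col4a1, Col4a2, Col4a5, Col6a1 and Col6a2 are lower in all induced than in all uninduced libraries of the mouse Dux and human DUX4 lines, Col5a2 and Col12a1 are lower with mouse Dux and higher with human DUX4, and Col24a1 is higher with both.

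Some members were near 0 in uninduced cultures of a factor line. Col22a1, a fibril-associated collagen of the junction between muscle and tendon, had 9.14, 11.3 and 10.5 CPM in induced mouse Dux libraries, against 0.0849, 0.174 and 0.382 CPM in uninduced mouse Dux libraries, a log2 response of 5.47 (SE 0.29, adjusted p = 3.18e-12) and of 5.26 without both replicate 1 libraries. All other groups averaged under 1 CPM, and its response exceeded the luciferase response by 6.68 (adjusted p = 3.16e-06), with 12 counts over uninduced luciferase libraries. Its difference from the human DUX4 response, 3.79 (edgeR adjusted p = 0.176), was not called. There it had 4 counts over induced and 1 over uninduced human DUX4 libraries. Col20a1, a little-studied fibril-associated collagen, had 75 counts over the induced mouse Dux libraries and none over the uninduced ones, at least 26.5-fold higher against a floor of 3 counts over the group. It had 5 counts over induced and none over uninduced human DUX4 libraries, at least 1.68-fold higher, a call lost without induced replicate 1. It had 0.995, 1.1 and 1.37 CPM in induced luciferase libraries, against 0.404, 0.305 and 0.414 CPM in uninduced luciferase libraries, at 1.61 (SE 0.32, adjusted p = 0.00108). Col23a1, a transmembrane collagen, had 4.73, 5.34 and 4.95 CPM in induced human DUX4 libraries, against 0.0625, 0.513 and 0.302 CPM in uninduced human DUX4 libraries, at 4.07 (SE 0.32, adjusted p = 8.01e-10). Col14a1, a fibril-associated collagen, was found mainly in the luciferase line, with 86.3, 86.9 and 89.8 CPM in induced luciferase libraries, against 47.5, 50.6 and 50.3 CPM in uninduced luciferase libraries, at 0.83 (SE 0.0823, adjusted p = 1.91e-07), and 1.05 CPM at most in any other library.

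Of the remaining tested genes, Col6a4 rose in both factor lines (2.83 ± 0.628 against 1.02 ± 0.26 CPM and 1.03 ± 0.144 against 0.428 ± 0.149 CPM), and Col17a1, a transmembrane collagen of hemidesmosomes, rose with human DUX4 (2.54 ± 0.274 against 1.11 ± 0.181 CPM). Col16a1, a fibril-associated collagen, and Col7a1, which forms the anchoring fibrils of skin, fell with human DUX4 by 1.63 and 0.89 on the log2 scale, were not called with mouse Dux, and the mouse Dux response minus the human DUX4 response was 1.55 (adjusted p = 1.02e-06) and 0.59 (adjusted p = 0.00657). Col10a1 and Col25a1 were called in none of the 3 responses, though Col25a1, with 8 counts over induced and 1 over uninduced mouse Dux libraries, was called higher in that line without both replicate 1 libraries (adjusted p = 0.0398). The 12 genes that were not tested (Col4a3, Col4a4, Col6a5, Col6a6, Col9a1, Col9a2, Col9a3, Col13a1, Col15a1, Col19a1, Col26a1 and Col28a1) had at most 25 counts summed over any group of 3 libraries. Of these, Col28a1 had 17 counts in induced and 3 in uninduced human DUX4 libraries, a ratio of 5.71 (95% counting interval 1.65 to 30.4).

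Setting each factor line against the luciferase line asks how far a response goes beyond that to doxycycline in the control clone. The mouse Dux response was higher than the luciferase response for 7 and lower for 13 of 32 genes, where 60.0% of all genes tested were called, 30.4% higher and 29.5% lower. These counts were 4 and 13 without mouse Dux induced replicate 2, 4 and 11 without uninduced replicate 2, and 9 and 14 without both replicate 1 libraries. The human DUX4 response was higher for 7 and lower for 15, where 55.0% of all genes tested were called, 28.3% higher and 26.7% lower. Both comparisons share the luciferase libraries. By class, the mouse Dux response was higher for 3 and lower for 5 fibrillar genes, lower for 3 basement membrane genes, and higher for 4 and lower for 5 other genes. Of these 3 basement membrane genes, Col4a6 (-1.79, adjusted p = 0.0246) was not called by DESeq2 (-1.81, adjusted p = 0.0729), nor without mouse Dux induced replicate 2, luciferase induced replicate 3 or luciferase uninduced replicate 2 (-1.70 to -1.45). The human DUX4 response was higher for 3 and lower for 6 fibrillar, lower for 2 basement membrane, and higher for 4 and lower for 7 other genes. Col6a2 differed by -2.43 (SE 0.0716, adjusted p = 1.41e-15) with mouse Dux and -2.89 (SE 0.0731, adjusted p = 2.62e-16) with human DUX4, and Col1a1 by -2.20 (SE 0.16, adjusted p = 5.73e-10) with human DUX4. For Col1a1 with mouse Dux the difference was 0.17 (SE 0.21, adjusted p = 0.503), not called, and 0.59 without both mouse Dux replicate 1 libraries (adjusted p = 0.000248). Col11a1 differed with mouse Dux by 1.36 (SE 0.53, adjusted p = 0.0422), at under 2 CPM in all 12 libraries concerned, and was not called with the replicate number as a block (1.39, adjusted p = 0.0776).

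The mouse Dux and human DUX4 responses, which share no libraries, were called in the same direction for 14 of the 32 genes (43.8%), against 28.3% of all genes tested: 11 fell in both and 3 rose in both, against 14.7% and 13.6% of all genes. The 11 were Col1a2, Col3a1 and Col5a3 among fibrillar genes, Col4a1, Col4a2 and Col4a5 among basement membrane genes, and Col6a1, Col6a2, Col6a3, Col8a2 and Col18a1 among the others. The 3 were Col24a1, Col6a4 and Col20a1. Of these, Col20a1 had only 5 counts over induced and none over uninduced human DUX4 libraries, and that call was lost without human DUX4 induced replicate 1. Opposite calls were made for 4 genes (12.5%, against 19.9% of all genes): Col5a2, Col8a1 and Col12a1 fell with mouse Dux and rose with human DUX4, and Col27a1 rose with mouse Dux and fell with human DUX4. Without both mouse Dux replicate 1 libraries 14 genes were again called in the same direction and 5 in opposite ones, Col5a1 being added. Tested directly, the mouse Dux response was higher than the human DUX4 response for 13 genes and lower for 8, where 65.2% of all genes tested were called, 32.9% higher and 32.3% lower. Without both mouse Dux replicate 1 libraries these counts were 15 and 8. A higher response here can be a smaller fall, as it was for Col1a2, whose responses differed by 1.90 (SE 0.0821, adjusted p = 1.96e-13), and Col18a1, at 1.84 (SE 0.11, adjusted p = 1.84e-11). Fibrillar genes had 6 higher and 4 lower, and other genes 6 higher and 4 lower. Of 4 basement membrane genes, Col4a5 alone was called, at 0.66 (SE 0.19, adjusted p = 0.00547), and not without mouse Dux induced replicate 2 (0.43, adjusted p = 0.0821). Col4a1 differed by 0.10 (SE 0.12, adjusted p = 0.481), with an approximate 95% interval of -0.13 to 0.34, and Col4a2 by 0.30 (SE 0.15, adjusted p = 0.0877), with an interval of 0.00598 to 0.59, neither adjusted for the number of genes. Col4a2 was called with the replicate number as a block (0.30, adjusted p = 0.0206), and both were called without the mouse Dux replicate 1 libraries (0.18, adjusted p = 0.00965, and 0.39, adjusted p = 1.13e-06).

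**Figure D5:**
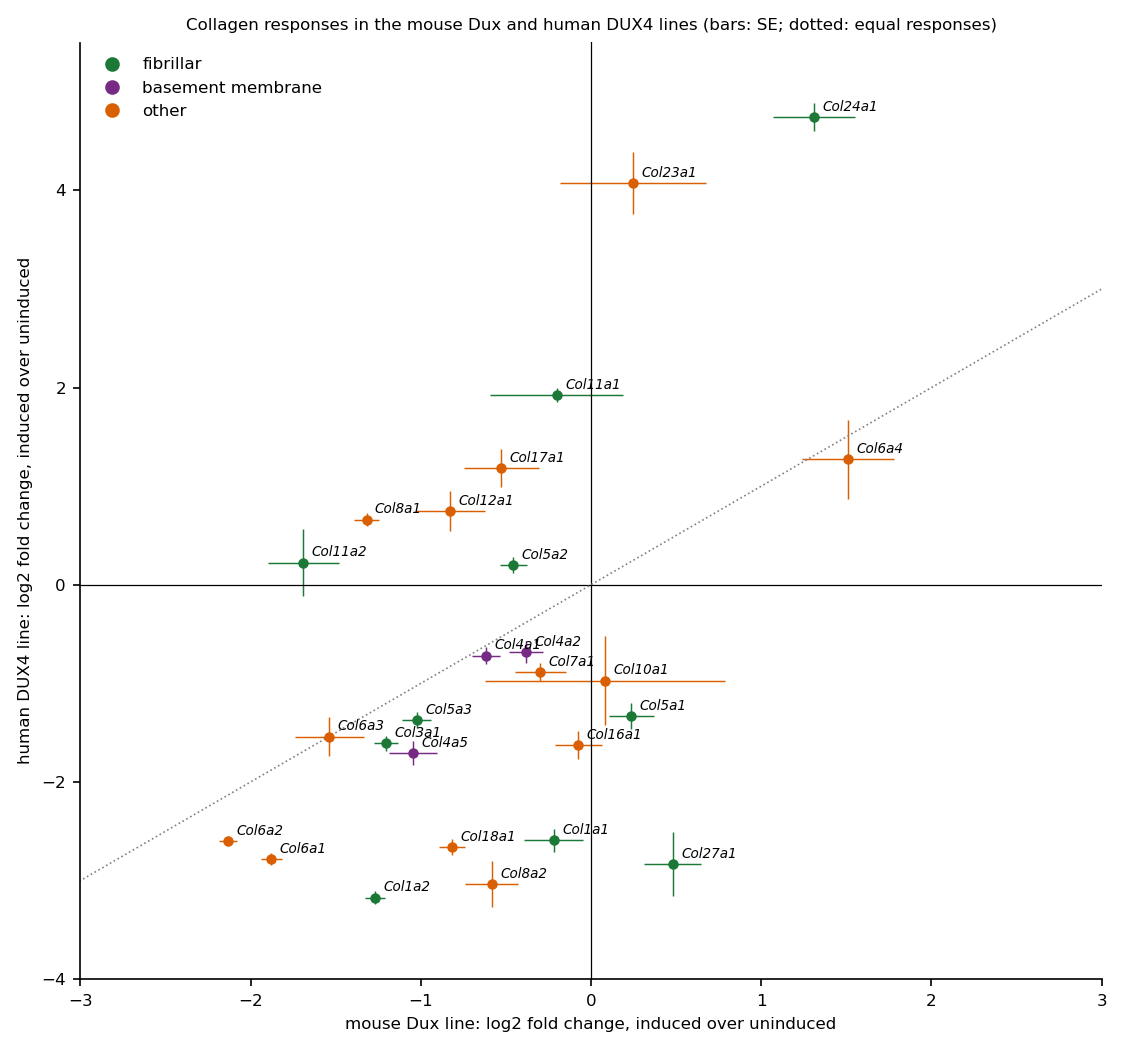
Log2 fold change of induced over uninduced cultures in the mouse Dux line (x axis) and the human DUX4 line (y axis) for the 26 tested collagen genes with over 3 counts in each of the 4 groups, coloured by class, with bars for the SE and a dotted line of equal responses. Col6a3 and Col6a4 lie close to the line, Col24a1 (1.31 and 4.74) and Col23a1 (0.25 and 4.07) far above it, and Col1a1 (-0.22 and -2.59) and Col27a1 (0.48 and -2.83) far below it.

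Before induction the 3 clones already differed widely in collagen transcripts. In uninduced cultures the mouse Dux line had 5 of the 32 genes higher and 20 lower than the luciferase line, where 65.3% of all genes tested were called, 32.2% higher and 33.1% lower. Without both mouse Dux replicate 1 libraries the counts were 6 and 20. All 11 fibrillar genes were called, 2 higher and 9 lower. Col1a1 differed most, at -9.41 (SE 0.16, adjusted p = 2.24e-19), with 11.5, 8.35 and 7.71 CPM in the mouse Dux line against 6283, 6166 and 6019 CPM in the luciferase line. Col1a2 was higher in the mouse Dux line at 0.96 (SE 0.0579, adjusted p = 1.96e-11). The 2 chains of type I collagen thus differed between these clones in opposite directions. Col2a1 had 34 counts in the mouse Dux line and none in the luciferase line, at least 12.2-fold higher.

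The uninduced human DUX4 line had 9 genes higher and 19 lower than the luciferase line, where 73.0% of all genes tested were called, 36.0% higher and 37.0% lower. All 4 tested basement membrane genes were lower, among them Col4a1 at -2.20 (SE 0.0864, adjusted p = 1.65e-14), Col4a2 at -2.42 (SE 0.11, adjusted p = 9.92e-14) and Col4a5 at -3.59 (SE 0.0805, adjusted p = 3.79e-18). Fibrillar genes split into 5 higher and 5 lower, with Col11a1 at 4.36 (SE 0.14, adjusted p = 6.87e-16), Col1a2 at 2.07 (SE 0.0595, adjusted p = 1.4e-16), Col1a1 at -3.26 (SE 0.12, adjusted p = 5.43e-15) and Col24a1 at -5.42 (SE 0.13, adjusted p = 1.03e-17). The uninduced mouse Dux line had 10 genes higher and 14 lower than the uninduced human DUX4 line, where 66.4% of all genes tested were called, 33.1% higher and 33.3% lower. Without both mouse Dux replicate 1 libraries the counts were 11 and 14. Col12a1 was called higher with the replicate number as a block (0.28, adjusted p = 0.00157, against 0.29 and not called), as was Col8a2 (0.28, adjusted p = 0.0487, against 0.27 and not called). Against the luciferase line, the block called Col6a2 lower (-0.10, adjusted p = 0.0263, against -0.0970 and not called). For these comparisons of lines the block was fitted to the uninduced libraries alone, with replicate numbers matched across lines. That fit differs from the main one in its libraries as well as in the block, so the 2 cannot be told apart in these calls. Col4a1 and Col4a2 were higher in the mouse Dux line, at 2.18 and 1.61, and 7 of 11 fibrillar genes were lower. The first 2 of these 3 comparisons share the luciferase libraries, and the third reuses the uninduced mouse Dux and human DUX4 libraries of those 2. Each compares single clones. For Col1a1 the gap from the uninduced luciferase clone was -9.41 in the mouse Dux line, whose response to induction was -0.22 and not called. In the human DUX4 line the gap was -3.26 and the response -2.59.

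Genes that modify, fold, export and cross-link collagen were described from lists chosen with earlier results known. Their counts stand against 34.1% higher and 34.8% lower of all genes tested with mouse Dux, 34.4% and 33.1% with human DUX4, and 14.7% and 16.4% with luciferase, where the medians of all genes were -0.00529, 0 and 0. Of 20 genes for chain modification and folding, 3 were higher and 15 lower with mouse Dux, 3 and 12 with human DUX4, and 1 and 5 with luciferase, at median log2 fold changes of -0.45, -0.37 and -0.0016. Serpinh1, the collagen-specific chaperone HSP47, averaged 404 ± 28.7 against 616 ± 7.26 CPM with mouse Dux, 296 ± 5.94 against 857 ± 6 CPM with human DUX4 and 1353 ± 12.1 against 1666 ± 8.2 CPM with luciferase (induced against uninduced, SD, n = 3), at log2 fold changes of -0.61 (SE 0.0451, adjusted p = 4.66e-10), -1.53 (SE 0.0459, adjusted p = 3.89e-16) and -0.30 (SE 0.0445, adjusted p = 2.88e-05). P4ha1, a prolyl hydroxylase subunit needed for a stable helix, fell by less, at -0.26 with mouse Dux, -0.96 with human DUX4 and -0.20 with luciferase. Against this, Plod2, a lysyl hydroxylase, rose with human DUX4 to 1063 ± 23.8 CPM, against 233 ± 5.62 CPM in uninduced cultures, at 2.19 (SE 0.0441, adjusted p = 1.77e-18), and P3h2, a prolyl 3-hydroxylase of type IV collagen, rose with mouse Dux to 26.7 ± 5.02 CPM, against 3.5 ± 0.576 CPM, at 2.94 (SE 0.15, adjusted p = 1.31e-12). Colgalt2, a collagen galactosyltransferase, averaged 25.3 ± 1.93 CPM in induced mouse Dux cultures and had no count in uninduced ones. Listed beside P4ha1, P4ha2 was called higher (1.61) and P4ha3 lower (-0.86) with mouse Dux. Fkbp9 and Fkbp10, prolyl isomerases of the endoplasmic reticulum, were among the larger falls (-1.35 with human DUX4 and -0.98 with mouse Dux).

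Of 10 tested genes for procollagen export, 5 were higher and 4 lower with mouse Dux, 3 and 5 with human DUX4, and 1 and 1 with luciferase, at medians of 0.22, -0.18 and 0.0635. Thus 9 and 8 of the 10 were called in the factor lines, where 68.9% and 67.6% of all genes were. Creb3l1, a transcription factor that in mouse bone activates Col1a1, fell with mouse Dux (-1.09, SE 0.0592, adjusted p = 4.2e-12) and human DUX4 (-2.32, SE 0.0623, adjusted p = 8.76e-17), while Mia3 (TANGO1), which loads procollagen into transport carriers, rose with human DUX4 (0.71, SE 0.0685, adjusted p = 1.84e-08). Of 13 tested genes for propeptide removal and cross-linking, 3 were higher and 8 lower with mouse Dux, 3 and 9 with human DUX4, and 2 and 4 with luciferase. The medians were -0.54, -0.52 and 0.0179 in the same order. With mouse Dux the counts were 3 and 9 when both replicate 1 libraries were left out. Lox, the lysyl oxidase that cross-links fibrils, averaged 2322 ± 45 against 1258 ± 27.4 CPM with mouse Dux, 2072 ± 25.6 against 2973 ± 57.3 CPM with human DUX4 and 776 ± 32.2 against 1140 ± 11.6 CPM with luciferase, at 0.88 (SE 0.0404, adjusted p = 2.74e-13), -0.52 (SE 0.0401, adjusted p = 6.58e-10) and -0.55 (SE 0.0403, adjusted p = 2.46e-09). Loxl1 fell with both factors (-1.24 and -2.67), and Pcolce, an enhancer of propeptide removal, with human DUX4 (-2.32). Tgm2, a transglutaminase, had the largest fall of its list with mouse Dux (-3.88, SE 0.12, adjusted p = 1.04e-15).

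Of 7 tested collagen receptor and uptake genes, 1 was higher and 5 lower with mouse Dux, 1 and 6 with human DUX4, and 3 and 2 with luciferase, at medians of -0.49, -0.77 and 0.0380, where 34.1% of all genes were called higher and 34.8% lower with mouse Dux and 34.4% and 33.1% with human DUX4. The 5 lower with mouse Dux became 3 without induced replicate 1, where Itga11 (-0.90) and Mrc2 (-0.12) were not called. The one that rose in both factor lines was Itga1, the integrin chain that binds type IV collagen (1.00, SE 0.24, adjusted p = 0.00107, and 3.26, SE 0.16, adjusted p = 7.55e-13). Itga11, the integrin chain for fibrillar collagen, fell in both (-1.39, SE 0.50, adjusted p = 0.02, and -3.59, SE 0.45, adjusted p = 7.66e-07). Its levels were low, at 0.293 against 0.723 CPM with mouse Dux and 0.155 against 1.98 CPM with human DUX4 (induced against uninduced). Basement membrane partners of type IV collagen moved in both directions. Of 14 tested, 6 were higher and 5 lower with mouse Dux, 8 and 3 with human DUX4, and 4 and 3 with luciferase. The medians were -0.0439, 0.39 and 0.0994 in the same order. With mouse Dux the counts were 7 and 5 without induced replicate 1, and 7 and 7 without both replicate 1 libraries. The laminin chains Lamb1 and Lamc1 rose with mouse Dux (1.55 and 0.56) and human DUX4 (0.48 and 0.52), and nidogen Nid1 rose to 3080 ± 66.6 CPM with human DUX4, against 837 ± 34.6 CPM in uninduced cultures (1.88, SE 0.0827, adjusted p = 1.2e-13), and by 0.42 with mouse Dux. The laminin chain Lamb3 fell with mouse Dux (-1.21) and human DUX4 (-3.17), as did Sparc, a collagen-binding matrix protein (-0.80 and -0.92), and nidogen Nid2 fell with mouse Dux (-1.05) and rose with human DUX4 (1.29). Lama1 was under 2 CPM on average in all groups. Of 11 genes for TGF-beta ligands, receptors and SMADs, a pathway known to raise fibrillar collagen transcription, 2 were higher and 6 lower with mouse Dux, 1 and 8 with human DUX4, and 4 and 2 with luciferase, at medians of -0.77, -0.67 and 0.14. Smad3 fell with both factors (-2.11 and -1.90), Tgfb3 with mouse Dux (-2.69) and Tgfbr2 with human DUX4 (-1.55), and the inhibitory Smad7 rose with mouse Dux (1.87, SE 0.0741, adjusted p = 3.1e-14). Smad2 was also higher with mouse Dux (0.51, SE 0.0486, edgeR adjusted p = 1.66e-08). Tgfbr1 was the one called higher with human DUX4 (0.68, SE 0.0762, edgeR adjusted p = 1.64e-07). In the mouse Dux line, Itga11 and Mrc2 lost their calls without induced replicate 1. Pcolce, not called with mouse Dux (0.0204), was called lower without both replicate 1 libraries (-0.0879). No other gene named from these lists changed its mouse Dux call in either setting. Whether any gene of these lists has a part in the collagen values was not tested.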

How the data were processed

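PolyA RNA from 18 cultures in 6 groups of 3 was sequenced from TruSeq libraries, pooled 14 to a pool on 2 lanes, per the labels' protocols. The pool and lane of each library are not stated there. The authors deposited raw counts per gene. CASAVA, TopHat2 2.0.12, Bowtie2 2.2.3 and the mm10 genome are named in the submitters' processing notes. Not given in the sources used here are the counting program, its annotation and its strand setting. Counts of overlapping genes such as Col4a1 and Col4a2 are therefore uncertain where they overlap. Transgene reads were not analysed here.

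Groups came from the sample titles. Counts were fitted in edgeR 4.0.16 (R 4.3.3) with TMM scaling, filterByExpr (13602 of 24028 genes kept) and the quasi-likelihood test over all 6 groups, with Benjamini-Hochberg adjustment over all genes tested and a threshold of 0.05; differences between responses were interaction contrasts. The cultures were separate but came from 1 clone per line, so p-values reflect only how cultures of a clone vary, with the variation pooled over lines. The common biological coefficient of variation was 6.25%. Counting intervals of ratios and the floor of 3 counts cover counting error only. The approximate intervals of responses and of their differences follow from the SE of the edgeR fit, which includes variation between cultures. RPKM used TMM-scaled library sizes and GENCODE vM21 exon unions. The fit was tested on simulated data.

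The members, gene lists and tests were chosen with earlier results of these data known. Genes given in every library were the main fibrillar and type IV chains, the members with the highest RPKM in uninduced luciferase cultures and the members with the largest called changes in each response. Alternatives were DESeq2 1.42.0, median-of-ratios scaling, library size alone, no low-count filter, only the groups compared, the longest transcript as length, multiplexins as basement membrane genes, each library left out, a replicate block, and, chosen after seeing the data, both mouse Dux replicate 1 libraries left out. Replicate numbers are in the titles. Same-numbered induced and uninduced libraries deviated together in the mouse Dux line (r across genes 0.40, 0.22 and 0.20) and not in the human DUX4 or luciferase lines (-0.0449 to 0.0484), so the block is given beside mouse Dux results it changes. In the mouse Dux line replicates 2 and 3 were as alike across numbers (0.21 and 0.19), so the values set replicate 1 apart and do not tell replicates 2 and 3 apart. Comparisons of uninduced lines were blocked by number across lines, in a fit of the uninduced libraries alone. Whether numbers correspond across lines was not checked.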

Additional observations from a re-analysis of the deposited data

Results flagged for a closer look

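Differences between responses, each tested as an interaction in edgeR, drew attention in 3 comparisons. A called difference was found for 20 of 32 collagen genes between the mouse Dux and luciferase responses (60.0% of all genes tested), 22 between the human DUX4 and luciferase responses (55.0% of all genes), and 21 between the mouse Dux and human DUX4 responses (65.2% of all genes). As shares of the 32 these were 62.5, 68.8 and 65.6%.

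Among the genes given in detail, the mouse Dux response minus the human DUX4 response on the log2 scale was above 0 for Col27a1 (3.31), Col8a2 (2.45), Col1a1 (2.37), Col1a2 (1.90), Col5a1 (1.57), Col6a1 (0.90), Col4a5 (0.66), Col6a2 (0.47) and Col3a1 (0.40). It was below 0 for Col23a1 (-3.83), Col24a1 (-3.43), Col11a1 (-2.13), Col8a1 (-1.98), Col11a2 (-1.91), Col12a1 (-1.57) and Col5a2 (-0.66). Of these, Col5a2, Col8a1, Col12a1 and Col27a1 were called in opposite directions in the 2 lines. No explanation of the differences was tested.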

How the results depend on the processing

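Counts of collagen genes called in each comparison moved by over 1.5 times in few cases. Genes called higher in the luciferase line numbered 10 with only the groups compared and 10 without both mouse Dux replicate 1 libraries, against 6; with only the groups compared, that line then had no fewer calls (10 higher, 12 lower) than the mouse Dux line (5 higher, 15 lower). Leaving out 1 library at a time, those higher in the mouse Dux than in the luciferase response numbered 4 to 9, against 7, with 4 without mouse Dux induced replicate 2 or uninduced replicate 2. With multiplexins counted as basement membrane genes, that class had 2 genes higher (against 1) in the mouse Dux minus human DUX4 response, 1 higher (against 0) in uninduced human DUX4 against luciferase cultures, and 2 lower (against 1) in uninduced mouse Dux against human DUX4 cultures. Without its most abundant member, the induced and uninduced class shares were, for fibrillar genes, 0.193 and 0.333% with mouse Dux, 0.226 and 0.754% with human DUX4 and 0.88 and 1.04% with luciferase; for basement membrane genes, 0.0134 and 0.0209% with mouse Dux, 0.0042 and 0.00751% with human DUX4 and 0.0364 and 0.0456% with luciferase; and for other genes, 0.0418 and 0.135% with mouse Dux, 0.0991 and 0.254% with human DUX4 and 0.254 and 0.238% with luciferase. The other share of the luciferase line was then higher in induced cultures.

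Of 207 results on the 23 named genes that were tested, 43 changed their call under some alternative and 1 reversed: Col5a1 in the mouse Dux minus luciferase response was 0.16 (edgeR adjusted p = 0.0471) without mouse Dux induced replicate 1, against -0.0395 and not called (range with 1 library left out -0.19 to 0.16). Calls changed for 13 results with only the groups compared and 13 without both mouse Dux replicate 1 libraries, 9 with library size alone, 6 with DESeq2, 2 with median-of-ratios scaling and 2 with no low-count filter. The replicate block changed 10 of these calls and moved no collagen count by over 1.5 times. Of the 10, 8 stand beside their results, and in the luciferase line it called Col5a1 higher (0.28, adjusted p = 0.00677) and Col12a1 lower (-0.45, adjusted p = 0.00264). With the longest transcript as length, 83 of 150 RPKM values of named genes moved by more than 1 SD. The cause of these changes was not tested. Depth limits the 12 untested genes and the members with few counts in a group.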
